A study of Drosophila melanogaster with 46 samples.

Results

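The 10 genes described here encode neuropeptide precursors of the larval brain of *Drosophila melanogaster*: *Pdf*, *Crz*, *Tk*, *sNPF*, *NPF*, *Eh*, *CCAP*, *hug*, *Nplp1* and *Dsk*. They were chosen by name from a table of 17490 genes, and all 10 were found, *hug* under the spelling Hug. All 10 passed the filter on low values (an average of 0.5 RPKM or more), as did 9357 genes in all. Polyadenylated RNA was sequenced from the dissected central nervous system (CNS) of larvae at the third instar. Tet CD larvae carry a double point mutation in the iron-binding motif of the TET enzyme, which removes its catalytic activity, on an allele that the strain list gives as fused to GFP. Wild-type larvae were of the w1118 line. There were 4 Tet CD and 4 wild-type libraries, each from pooled brains.

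A neuropeptide is cut from a longer precursor, usually at pairs of basic residues, often amidated at its end, stored in dense-core vesicles and released to act on G protein-coupled receptors. In the fly CNS most of these genes are expressed in small, fixed sets of neurons, *sNPF* in many more, and several act as hormones in feeding, growth, stress, daily rhythms or moulting. Because the RNA came from whole CNS, fewer neurons of a type and less RNA per neuron cannot be told apart.

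RPKM is the number of reads of a gene scaled to its exon length and to the size of the library, so levels can be compared between genes. The steps between low values gave library sizes of 17500000 to 32600000 reads, with wild-type replicate 2 the deepest. With those sizes, all 80 values of the 10 genes came out within 0.01 of a whole number of reads, from 137 reads for *Tk* in wild-type replicate 1 to 7004 reads for *Nplp1* in wild-type replicate 2. Counting error alone is then 8.54% and 1.19% of these values, and it does not include the error between libraries. Summed levels of neuron markers (*elav*, *nSyb*, *brp*, *Syt1*) were 180 to 292 RPKM in Tet CD and 296 to 337 RPKM in wild type. Those of the trachea (*Gasp*, *serp*, *knk*, *verm*) were 87.3 to 148 RPKM in Tet CD and 36.5 to 80.6 RPKM in wild type. Neither sum overlapped between the genotypes, and 18.8% of all genes tested had groups that did not overlap. Taken singly, *nSyb*, *brp*, *Syt1*, *serp* and *knk* overlapped, while *elav*, *Gasp* and *verm* did not. Midgut markers, from a tissue that also makes *Tk*, *NPF* and *CCAP* peptides, summed to 0.0627 to 0.208 RPKM in Tet CD and 0.359 to 0.613 RPKM in wild type, with *betaTry* listed at 0 throughout. Fat body markers summed to 54.2 RPKM in Tet CD replicate 2 and to 34.0 RPKM in wild-type replicate 4, while the other 6 libraries held 1.42 to 8.15 RPKM. Markers of the ring gland (*phtm*, *dib*, *sad*, *nvd*, *spok*) were high in both genotypes. They summed to 196.5 to 376 RPKM in Tet CD and 163 to 465 RPKM in wild type. *Tet* itself was at 81.0, 28.3, 39.2 and 72.4 RPKM in Tet CD replicates 1 to 4, against 76.4, 81.8, 88.8 and 83.4 RPKM in wild type (log2 fold change −0.70, limma adjusted p = 0.153).

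*Nplp1* was the most abundant of the 10 transcripts and *Tk* the least, in both genotypes. In Tet CD the mean level was 85.8 RPKM for *Nplp1*, 55.2 for *hug*, 43.9 for *NPF*, 42.4 for *Crz*, 36.4 for *Pdf*, 33.2 for *sNPF*, 23.2 for *Dsk*, 21.1 for *Eh*, 12.9 for *CCAP* and 7.20 for *Tk*. In wild type it was 79.1 RPKM for *Nplp1*, 60.3 for *hug*, 46.3 for *NPF*, 34.3 for *Pdf*, 33.2 for *Crz*, 28.9 for *sNPF*, 23.0 for *Dsk*, 17.1 for *Eh*, 13.2 for *CCAP* and 6.04 for *Tk*. The order was the same in both genotypes except that *Crz* stood above *Pdf* in Tet CD and just below it in wild type. In wild type only 1 pair of neighbours, *Pdf* and *Crz*, overlapped between libraries. In Tet CD the libraries of 5 pairs of neighbours overlapped: *hug* with *NPF*, *NPF* with *Crz*, *Crz* with *Pdf*, *Pdf* with *sNPF*, and *Dsk* with *Eh*. By wild-type level, *Nplp1* lay above 90.3% of the genes tested and *Tk* above 26.8%.

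**Figure D1:**
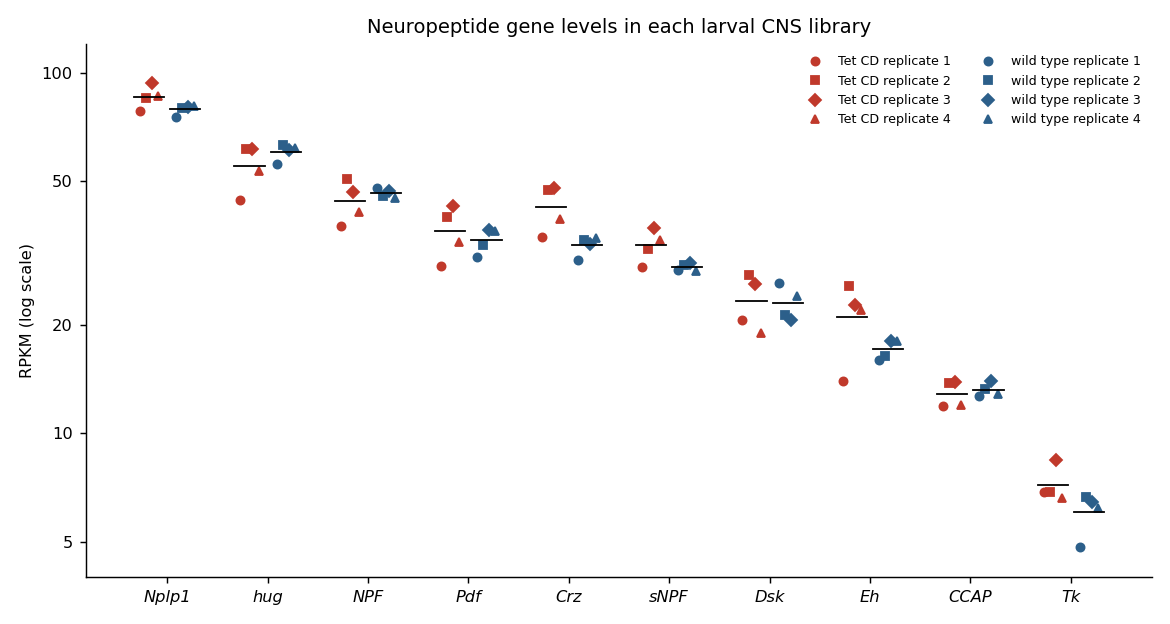
Level of each neuropeptide gene in RPKM (log axis) in the 4 Tet CD libraries (red, left) and the 4 wild-type libraries (blue, right), with a marker shape per replicate number and a line at each group mean. *Crz* is the gene whose Tet CD libraries all lie above its wild-type libraries, and Tet CD replicate 1 is the lowest Tet CD library for 8 of the 10 genes.

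The comparison of Tet CD with wild type takes in the loss of TET catalytic activity, the GFP fusion and any difference in strain background. Their parts cannot be told apart with these libraries, nor from the lower *Tet* RNA of Tet CD replicates 2 and 3. A gene was called where limma gave an adjusted p (Benjamini-Hochberg) under 0.01 and the fold change exceeded 1.2. None of the 10 was called, where 235 of 9357 genes, or 2.51%, were (1.16% higher in Tet CD and 1.35% lower). At an adjusted p under 0.05 and the same fold change, 0 of the 10 passed in limma, beside 8.46% of all genes. At an unadjusted p below 0.05, 2 of the 10 were higher and 0 lower, against 14.4% and 13.9% of all genes. The log2 fold change was above 0 for 7 genes and below 0 for 3, with a median of 0.093 beside −0.0061 over all genes tested. That median was 0.16 without Tet CD replicate 1, 0.031 without replicate 3 and −0.042 without replicates 2 and 3. Only *Crz* had groups that did not overlap, in the direction higher in Tet CD, which held for 9.35% of all genes, with 9.42% in the other direction and 18.8% in either. The p-values measure the spread between these libraries of pooled brains. Fold changes were taken on the log2(RPKM + 0.5) scale.

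*Crz* encodes corazonin, a peptide related to adipokinetic hormone that acts in stress and metabolism. Its level was 35.0, 47.3, 48.0 and 39.3 RPKM in Tet CD replicates 1 to 4, against 30.2, 34.4, 33.6 and 34.7 RPKM in wild type. The groups did not overlap, but Tet CD replicate 1 lay just above the highest wild-type library. The means were 42.4 ± 6.31 RPKM in Tet CD and 33.2 ± 2.07 RPKM in wild type (SD, n = 4 each), which is 0.34 on the log2 scale (standard error, SE, 0.10, limma adjusted p = 0.0699). The 95% interval ran from 0.11 to 0.57, and a two-sided exact permutation test of the 4 against 4 libraries gave p = 0.0286, the smallest it can give. Any gene whose groups do not overlap gets this p, and 18.8% of all genes tested had such groups. The gene (FBgn0013767) lies on 3R from 14314854 to 14315716 in dm6.

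*Eh* and *CCAP* encode eclosion hormone and crustacean cardioactive peptide, which act in the sequence of behaviours that sheds the old cuticle. *Eh* (FBgn0000564, 3R from 17446642 to 17448858) was at 14.0, 25.6, 22.7 and 22.0 RPKM in Tet CD, against 15.9, 16.3, 18.0 and 18.0 RPKM in wild type. Tet CD replicates 2, 3 and 4 were above every wild-type library and replicate 1 below all of them, a range of 1.83-fold within Tet CD against 1.13-fold within wild type. The means of *Eh* were 21.1 ± 4.98 and 17.1 ± 1.11 RPKM (SD, n = 4 each) in Tet CD and wild type, with a log2 fold change of 0.26 (SE 0.16, limma adjusted p = 0.317). Its interval, from −0.100 to 0.62, was the widest of the 10. The log2 fold change of *Eh* was 0.44 without Tet CD replicate 1 (limma adjusted p = 0.0152) and 0.16 without replicate 2. *CCAP* (FBgn0039007, 3R from 22700582 to 22702084) was at 11.9, 13.8, 13.9 and 12.0 RPKM in Tet CD, against 12.7, 13.3, 14.0 and 12.9 RPKM in wild type. The groups overlapped, with a log2 fold change of −0.037 (SE 0.074, limma adjusted p = 0.784) and an interval from −0.20 to 0.13. *CCAP* shares exon sequence with *CG6972* on the other strand, and the sources used here do not give strand-specific counting, so reads of the overlap cannot be assigned with certainty.

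*sNPF*, *NPF*, *hug* and *Dsk* encode peptides known for their part in feeding: short neuropeptide F, the fly relative of vertebrate neuropeptide Y, hugin, which is related to neuromedin U, and drosulfakinin, which is related to cholecystokinin. *sNPF* (FBgn0032840, 2L from 20027915 to 20056373) was at 29.0, 32.5, 37.0 and 34.4 RPKM in Tet CD, against 28.4, 29.2, 29.7 and 28.1 RPKM in wild type. Here 3 of the 4 Tet CD libraries were above all wild-type libraries, and replicate 1 lay among them. The log2 fold change of *sNPF* was 0.19 (SE 0.074, limma adjusted p = 0.128, interval 0.027 to 0.36). *NPF* (FBgn0027109, 3R from 16609220 to 16611325) was at 37.6, 50.6, 46.6 and 41.0 RPKM in Tet CD, against 47.9, 45.5, 46.9 and 44.9 RPKM in wild type. Its Tet CD libraries fell on both sides of the wild-type ones, with a log2 fold change of −0.083 (SE 0.087, limma adjusted p = 0.563, interval −0.28 to 0.11). It was −0.012 without Tet CD replicate 1 and −0.15 without replicate 2.

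*hug* (FBgn0028374, 3R from 12526188 to 12529076) was at 44.2, 61.6, 61.5 and 53.4 RPKM in Tet CD, against 55.6, 63.0, 61.0 and 61.6 RPKM in wild type. Replicates 2 and 3 of Tet CD lay among the wild-type libraries, and replicates 1 and 4 were below every wild-type library. Its log2 fold change was the lowest of the 10, at −0.14 (SE 0.10, limma adjusted p = 0.405, interval −0.37 to 0.092), and it was −0.038 without Tet CD replicate 1. *Dsk* (FBgn0000500, 3R from 4189692 to 4190260) was at 20.6, 27.5, 25.9 and 19.0 RPKM in Tet CD, against 26.0, 21.3, 20.6 and 24.0 RPKM in wild type. The Tet CD libraries reached below and above those of wild type, and the log2 fold change was 0.0053 (SE 0.13, limma adjusted p = 0.984, interval −0.28 to 0.29). Its sign was not stable, at −0.079 without Tet CD replicate 2.

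*Pdf* encodes pigment-dispersing factor, the peptide that clock neurons use to set daily rhythms. It was at 29.2, 39.8, 42.7 and 33.8 RPKM in Tet CD, against 30.9, 33.4, 36.7 and 36.3 RPKM in wild type. Replicates 2 and 3 of Tet CD were above all wild-type libraries and replicate 1 below them. The log2 fold change of *Pdf* (FBgn0023178, 3R from 26455462 to 26456141) was 0.071 (SE 0.12, limma adjusted p = 0.725, interval −0.19 to 0.33), and it was −0.010 without Tet CD replicate 3.

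*Tk* encodes the tachykinins, modulators of sensory processing, and *Nplp1* encodes several peptides of neurons that express the LIM factor *ap*. *Tk* (FBgn0037976, 3R from 11994175 to 12005473) was at 6.89, 6.87, 8.41 and 6.62 RPKM in Tet CD, against 4.84, 6.65, 6.47 and 6.22 RPKM in wild type. In Tet CD replicate 3 stood apart as the highest, and in wild type replicate 1 was the lowest. The log2 fold change of *Tk* was 0.24 (SE 0.12, limma adjusted p = 0.218, interval −0.026 to 0.50), and 0.14 without wild-type replicate 1. *Nplp1* (FBgn0035092, 2R from 25032377 to 25040377) was at 78.1, 85.1, 93.6 and 86.3 RPKM in Tet CD, against 75.3, 79.6, 80.3 and 81.0 RPKM in wild type. Its Tet CD replicates 2 to 4 were above all wild-type libraries, and the log2 fold change was small, at 0.11 (SE 0.060, limma adjusted p = 0.244, interval −0.020 to 0.25).

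**Figure D2:**
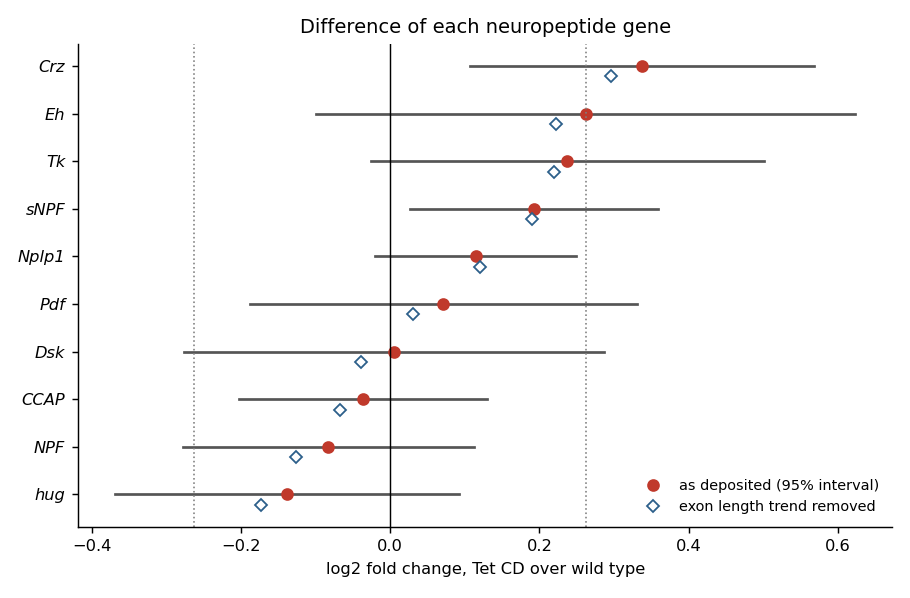
Log2 fold change of each neuropeptide gene, Tet CD over wild type, with its 95% interval from limma (red points and bars) and the same after removal of the trend over exon length (open diamonds). Dotted lines mark a fold change of 1.2 in either direction. The intervals of *Crz* and *sNPF* lie above 0, and none of the 10 genes was called.

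Most of the 10 genes had the same high and low libraries within Tet CD. Replicate 1 had the lowest Tet CD value for 8 of them and replicate 4 for the other 2, whereas replicate 3 had the highest value for 6 and replicate 2 for 4. Over all genes tested, replicate 1 was the lowest for 27.1% and replicate 4 for 28.1%, and replicate 3 was the highest for 15.3% and replicate 2 for 31.1%. The median log2 ratio of the 10 genes to their wild-type means was −0.14, 0.17, 0.28 and 0.055 in Tet CD replicates 1 to 4, against −0.082, 0.0089, 0.031 and 0.042 in wild-type replicates 1 to 4. All 10 were above their wild-type mean in Tet CD replicates 2 and 3, 5 in replicate 4 and 3 in replicate 1. Their levels summed to 306, 390, 400 and 348 RPKM in Tet CD and 328, 343, 347 and 348 RPKM in wild type. The spread within Tet CD was wider than within wild type for 9 of the 10 genes (the exception was *Tk*) and for 75.2% of all genes tested. The median SD of the log2 values was 0.20 in Tet CD and 0.085 in wild type for the 10 genes, beside 0.16 and 0.090 for all genes.

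Exon length moved with this pattern. The 10 genes have exons of 569 to 2701 bases with a median of 868.5, against 2078 over the tested genes, and 6 of them (*Pdf*, *Crz*, *NPF*, *Eh*, *hug*, *Dsk*) fall in the shortest of 5 equal classes of exon length. That class as a whole had median log2 ratios of −0.018, 0.14, 0.069 and −0.038 in Tet CD replicates 1 to 4. In the longest class the medians were 0.0050, −0.32, −0.12 and 0.028. After removal of that trend from every library, the 10 genes had a median of −0.12, 0.098, 0.24 and 0.077 in Tet CD replicates 1 to 4, in the same order of replicates as before. For 7 genes (*Pdf*, *Crz*, *NPF*, *Eh*, *CCAP*, *hug*, *Dsk*) both Tet CD replicates 2 and 3 were above both replicates 1 and 4. This split, which was chosen after the values were seen, held for 26.0% of all genes tested and 38.6% of the shortest class. The sum of the neuron markers went the other way, at 289, 180, 220.5 and 292 RPKM in Tet CD replicates 1 to 4. Among them *nSyb* departed from this split, with replicate 3 (110.8 RPKM) above replicate 1 (109.1 RPKM). Glia markers (*repo*, *alrm*, *Gat*, *moody*) summed to 158, 186, 192.5 and 161 RPKM in the same libraries, with replicates 2 and 3 above the others as for the peptide genes. Of these *repo* departed from the split, with replicate 4 (47.0 RPKM) above replicate 2 (45.9 RPKM). The part of the exon length trend and of the neuron and glia marker levels in these differences was not tested. Nor was the part of that trend in the marker sums themselves.

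**Figure D3:**
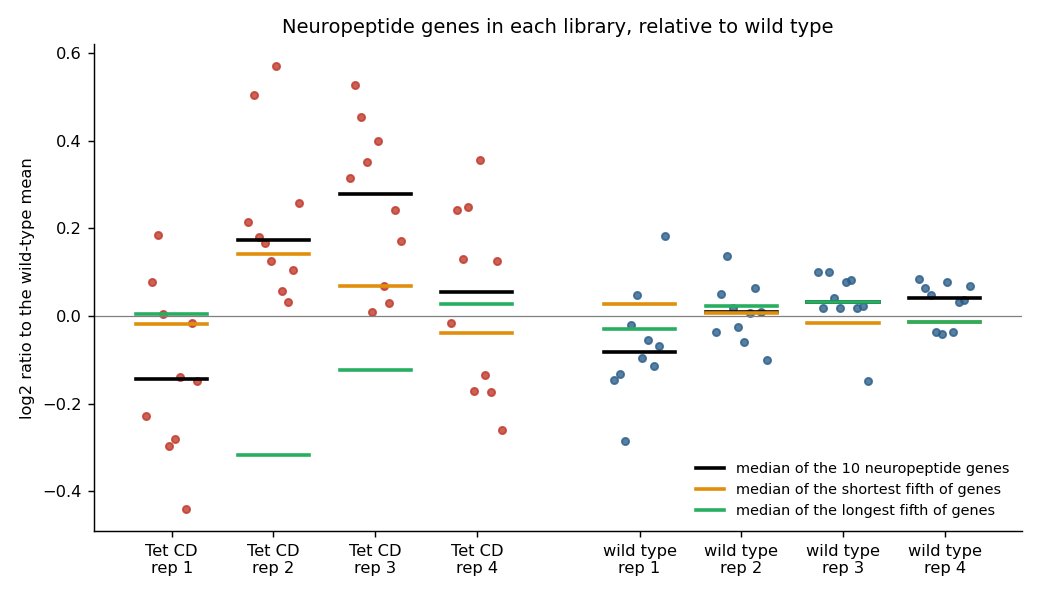
Log2 ratio of each neuropeptide gene to its wild-type mean in every library (points; Tet CD red, wild type blue), with medians of the 10 genes (black) and of the shortest (orange) and longest (green) of 5 classes of exon length. The 10 genes have medians of 0.17 and 0.28 in Tet CD replicates 2 and 3 and of −0.14 in replicate 1.

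The size of the differences, and for *Pdf* and *Dsk* the direction, changed with these libraries. Without Tet CD replicates 2 and 3, the log2 fold change was 0.16 for *Crz*, 0.16 for *Tk*, 0.13 for *sNPF*, 0.055 for *Nplp1* and 0.038 for *Eh*. In the same fit it was −0.31 for *hug*, −0.23 for *NPF*, −0.20 for *Dsk*, −0.14 for *CCAP* and −0.12 for *Pdf*, and no gene was called (adjusted p = 0.0629 for *NPF* and 0.0868 for *hug* from limma). With limma's array weights, which put a weight of 6.32 on Tet CD replicate 3 and 0.318 to 0.399 on the other Tet CD libraries, *Crz*, *Eh*, *Tk* and *sNPF* passed as higher, with log2 fold changes of 0.48, 0.38, 0.37 and 0.32 and limma adjusted p-values of 0.000524, 0.0053, 0.00998 and 0.0011. In that fit 8.83% of all genes were called as higher. With the exon length trend removed, *Crz* was at 0.30 (limma adjusted p = 0.0359) and none of the 10 was called.

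In their positions the genes are uneven: 8 of the 10 lie on 3R, which holds 23.7% of the genes tested, 1 on 2L and 1 on 2R. *Pdf* and *Dsk* have a single exon each. The annotation places no other gene over *Pdf*, *Crz*, *NPF*, *Eh* or *Nplp1*, and *Tk*, *sNPF*, *hug* and *Dsk* overlap annotated features on the other strand with no shared exon sequence.

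Other precursors, the receptors and the secretory machinery were read from the same fit. Of 30 other neuropeptide and peptide hormone genes listed, 29 were found and 23 tested. None of the 23 was called, 14 had a log2 fold change above 0 and 9 below, and the median was 0.038. The sign of that median turned without Tet CD replicate 2 (−0.041), without replicate 3 (−0.029), without both (−0.14) and with the exon length trend removed (−0.0023). At an unadjusted p below 0.05, 5 were higher and 5 lower, or 43.5% of the list beside 28.3% of all genes. The largest differences by size were those of *Nplp2* and *Nplp4*, which encode neuropeptide-like precursors. *Nplp4* was at 13.6, 10.6, 13.8 and 9.21 RPKM in Tet CD, against 7.69, 7.27, 5.87 and 6.71 RPKM in wild type. Its groups did not overlap, as in 9.35% of all genes in that direction. *Nplp4* had a log2 fold change of 0.72 (SE 0.14, limma adjusted p = 0.0152) and was called when Tet CD replicate 4 was left out. *Nplp2* was low throughout, at 3.02, 2.63, 3.38 and 1.54 RPKM in Tet CD and 1.22, 0.302, 0.190 and 2.26 RPKM in wild type, with overlapping groups and an adjusted p of 0.0923 from limma. In 4 of the 23, *AstCC*, *Gpb5*, *ITP* and *Ptth*, named here after their values were seen, all Tet CD libraries were below wild type, as in 9.42% of all genes. *ITP*, which encodes ion transport peptide, averaged 20.02 ± 1.07 RPKM in Tet CD and 24.0 ± 0.575 RPKM in wild type (SD, n = 4 each, limma adjusted p = 0.0254). *Ptth*, which encodes prothoracicotropic hormone, averaged 4.49 ± 1.15 RPKM in Tet CD and 6.21 ± 0.317 RPKM in wild type (SD, n = 4 each, limma adjusted p = 0.105). *AstCC* and *Gpb5* had means of 13.04 ± 1.98 and 24.05 ± 1.501 RPKM in Tet CD and 17.8 ± 0.630 and 30.5 ± 1.89 RPKM in wild type (SD, n = 4). The adjusted p-values of *AstCC* and *Gpb5* from limma were 0.0301 and 0.0175, and both were called with the exon length trend removed.

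The receptor list holds 11 receptors assigned to these peptides or their families, together with *ETHR* and *rk*, receptors of other hormones of the moult. Of the 13, 12 were tested and *Pdfr* was not, at a mean of 0.287 RPKM in Tet CD and 0.347 RPKM in wild type. None was called, 11 of the 12 had a log2 fold change below 0 (4812 of 9357 over all genes), 3 of them at an unadjusted p below 0.05 (13.9% of all genes), and the median was −0.19 (−0.17 with the exon length trend removed). The tachykinin receptor *TkR99D* was at 7.39, 5.95, 8.56 and 9.63 RPKM in Tet CD, against 10.1, 10.5, 9.95 and 10.8 RPKM in wild type (−0.39 on the log2 scale, SE 0.13, limma adjusted p = 0.0855). The groups did not overlap, as in 9.42% of all genes in that direction, and Tet CD replicate 2 was the lowest. *sNPF-R*, the receptor of short neuropeptide F, was at 5.27, 4.62, 5.50 and 6.80 RPKM in Tet CD, against 7.04, 7.06, 7.79 and 6.45 RPKM in wild type (log2 fold change −0.34, limma adjusted p = 0.0981).

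Of 12 genes listed for the cutting, amidation and regulated release of peptides, 10 were found and tested and none was called. Their median log2 fold change was −0.16 (−0.15 with the exon length trend removed). Of the 10, 3 were above 0 and 7 below, of which 4 had an unadjusted p below 0.05, beside 13.9% of all genes in that direction. *IA-2*, a membrane protein of dense-core vesicles, was at 159, 72.5, 106 and 150 RPKM in Tet CD, against 156, 178, 176 and 170 RPKM in wild type (log2 fold change −0.54, SE 0.21, limma adjusted p = 0.135). The furin-like protease gene *Fur1* was at 12.6, 7.05, 8.56 and 13.7 RPKM in Tet CD, against 13.3, 13.1, 14.7 and 13.2 RPKM in wild type (limma adjusted p = 0.177). For both, replicates 2 and 3 of Tet CD were far below wild type and replicates 1 and 4 near it, the reverse of the order seen in the peptide genes. The longest of the 5 classes of exon length had median log2 ratios of 0.0050, −0.32, −0.12 and 0.028 in Tet CD replicates 1 to 4. The part of that trend in *IA-2* and *Fur1* was not tested. In 3 of the 10, all Tet CD libraries were below wild type, as in 9.42% of all genes. These were *amon*, *Cadps* and *Syt-beta*, named here after their values were seen. *Cadps*, a release factor of dense-core vesicles, had a mean of 107 ± 16.6 RPKM in Tet CD and 139 ± 7.95 RPKM in wild type (SD, n = 4, limma adjusted p = 0.0483). It was called with the exon length trend removed. The log2 fold change was −0.24 for *amon* (limma adjusted p = 0.0492) and −0.25 for *Syt-beta* (limma adjusted p = 0.0794).

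Of 6 transcription factors listed for peptidergic identity, *dimm*, *eya*, *kn*, *sqz* and *grh* were tested. None was called, and all 5 had an unadjusted p below 0.05, 3 higher and 2 lower (28.3% of all genes in either direction, 14.4% higher and 13.9% lower), with a median log2 fold change of 0.18. *grh* was at 16.3, 9.78, 8.83 and 8.85 RPKM in Tet CD, against 8.26, 8.20, 5.95 and 7.42 RPKM in wild type (log2 fold change 0.49, limma adjusted p = 0.134). *eya*, a cofactor in the neurons that make *Nplp1* and FMRFamide peptides, was at 29.7, 26.0, 22.7 and 22.6 RPKM in Tet CD, against 21.1, 19.8, 13.3 and 18.7 RPKM in wild type (log2 fold change 0.47, limma adjusted p = 0.0731). Groups of *grh* and *eya* did not overlap, as in 9.35% of all genes in the direction higher in Tet CD. Tracheal markers summed to 148, 128, 96.5 and 87.3 RPKM in Tet CD and 80.6, 63.4, 36.5 and 63.7 RPKM in wild type, highest in Tet CD replicate 1 and lowest in wild-type replicate 3 as for *grh* and *eya*, and their part in these levels was not tested. In the other direction *dimm*, a regulator of secretory capacity in peptidergic cells named here after its values were seen, was at 1.15, 0.785, 1.12 and 1.21 RPKM in Tet CD, against 1.53, 1.602, 1.27 and 1.48 RPKM in wild type (log2 fold change −0.34, limma adjusted p = 0.174). Its groups did not overlap, as in 9.42% of all genes in that direction. *grh* and *eya* also act outside peptidergic neurons, so their levels are not those of these neurons alone.

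**Figure D4:**
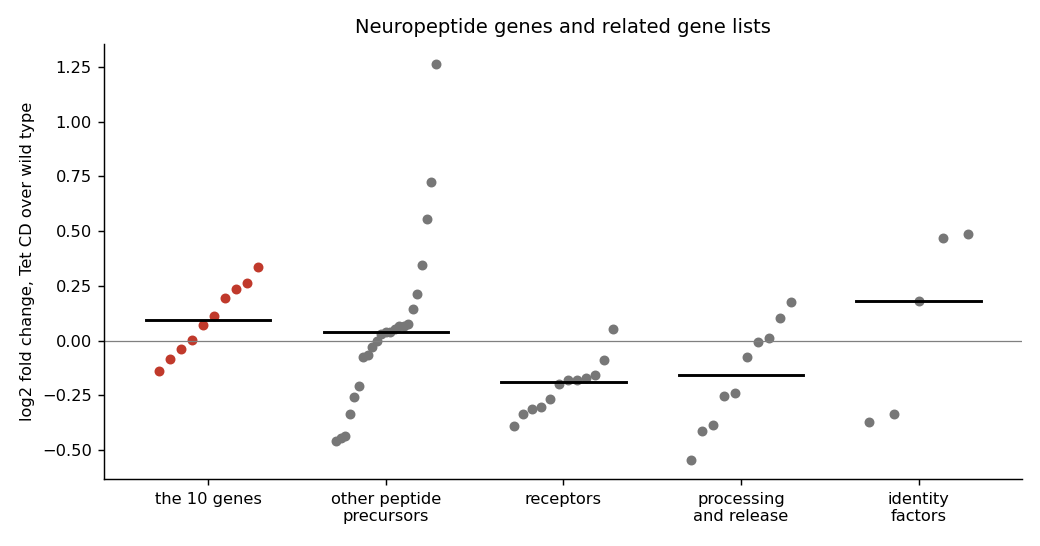
Log2 fold change, Tet CD over wild type, of each tested gene (points) in the 10 neuropeptide genes (red) and the 4 related lists (grey), with the median of each as a line. The medians are 0.093 for the 10 genes, 0.038 for the other precursors, −0.19 for the receptors, −0.16 for processing and release and 0.18 for the identity factors.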

How the data were processed

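The deposited values are RPKM, which the authors computed with Cufflinks after trimming (Cutadapt), alignment to dm6 (Hisat2) and counting per gene (HTSeq-Count). Another 4 columns matched no sample label and were not used. Tet null, ChIP-seq and CUT&RUN were not analysed here. Replicates are separate libraries of pooled brains. Values were compared as log2(RPKM + 0.5) with limma 3.58.1 in R 4.3.3 (eBayes with a trend), for 9357 genes that averaged 0.5 RPKM or more, with p-values adjusted over all of them. On simulated data with 200 of 9357 genes changed by 1 on the log2 scale, 168 were called and 0 falsely. The simulated noise was independent between genes and equal in spread in both genotypes. In the real data the Tet CD spread was wider for 75.2% of genes tested, and the largest change among the 10 genes was 0.34. The simulation therefore does not measure how often changes of that size are missed, or how often calls are false, in these libraries. Gene models and exon lengths came from Ensembl release 115 (98.4% of genes), later than the release the authors used. Library sizes are those at which values under 0.3 RPKM, multiplied by exon length, were whole reads within 0.01, which held for 97.6 to 98.1% of them. Genes named are the 10 members, and in each other list any called gene and the 2 with the largest log2 fold change by size. Members, lists and tests were chosen with earlier results of these data known. *Phm*, *Pal1*, *Gpa2* and *ap* were not matched. Python 3.11.15 made the summaries (pandas 2.3.3), exact tests (scipy 1.17.1) and figures (matplotlib 3.10.9). The alternatives were 2 other pseudocounts, 2 other filters, median-of-ratios scaling, a replicate block, array weights, leaving out libraries, removal of the trend over exon length (lowess, span 0.3) and an adjusted p below 0.05.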

Additional observations from a re-analysis of the deposited data

Results flagged for a closer look

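*Tk* was at 8.41 RPKM in Tet CD replicate 3, far from the 6.62 to 6.89 RPKM of the other 3 Tet CD libraries for the range of the group. Of 20 groups of 4 libraries (10 genes in 2 genotypes) it was the only one with such a library, and chance gives 1 in 20.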

How the results depend on the processing

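The count of 0 called among the 10 genes was unchanged under every alternative but array weights, which gave 4 of 10, and likewise 4 receptors, 3 processing genes, 7 other precursors and 1 identity factor in place of 0 each, with 826 higher and 1024 lower genes in the whole table. An adjusted p below 0.05 gave 1 processing gene and 3 other precursors, with 442 higher and 350 lower in the whole table. Removing the exon length trend gave 1 processing gene, 2 other precursors and 171 higher and 186 lower genes in the whole table, in place of 109 and 126. Without Tet CD replicates 2 and 3, 1 other precursor and 44 higher and 88 lower genes in the whole table were called. With 1 library left out, 0 to 1 other precursors were called (*Nplp4*, without Tet CD replicate 4), and 52 to 205 higher and 71 to 203 lower genes in the whole table, the most of both without Tet CD replicate 4. With 1 library left out, *Dsk* ran between −0.079 and 0.094 and *Pdf* between −0.010 and 0.17 on the log2 scale. *Dsk* changed sign from 0.0053 to −0.079 and −0.050 when Tet CD replicates 2 and 3 were left out singly, −0.029 and −0.044 without wild-type replicates 2 and 3, −0.20 without Tet CD replicates 2 and 3, and −0.039 with the length trend removed. *Pdf* changed sign to −0.010 without Tet CD replicate 3 and −0.12 without replicates 2 and 3, and with array weights *CCAP* went to 0.044 and *NPF* to 0.00040. The cause of these changes was not tested.

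Whether the replicate numbers pair the samples is not given by the labels. Deviations of same-numbered libraries correlated at 0.24, −0.19, 0.040 and −0.11 for replicates 1 to 4. The highest correlation of each Tet CD library with a wild-type library of another number was 0.22, 0.31, 0.038 and 0.25. With so few libraries these values cannot exclude a pairing. With a replicate block 51 higher and 60 lower genes were called in the whole table and 0 of the 10. The exact test of 4 against 4 libraries cannot give a p below 0.0286.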

Other observations

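Of the 29 other peptide genes found, 6 fell below the filter. *Lk* (leucokinin) and *ETH* (ecdysis triggering hormone, made by Inka cells on the tracheae) were listed at 0 in all 8 libraries, as were 2496 of the 17490 genes. The reason was not tested, and a listed 0 alone does not show that the RNA was absent from the CNS. Mean levels in Tet CD and wild type were 0.026 RPKM and listed at 0 for *Nplp3*, 0.424 and 0.454 RPKM for *CNMa*, 0.543 and 0.377 RPKM for *RYa*, and 0.266 and 0.2801 RPKM for *amn*.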
